A study of Homo sapiens with 18 samples.

Results

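GDF15 (Entrez 9518), the gene of a secreted stress cytokine, was followed across 18 RNA-seq libraries of 3 human lung cell lines, as 1 of 18475 genes in the deposited table. It was chosen from these same data, because it had the strongest rise after irradiation in BEAS-2B cells when the library of irradiated replicate 2 was left out. Its values in BEAS-2B cells are therefore given as a description, and tests were run only in A549 and H446 cells. The purpose of the study was to set the radiation response of a lung epithelial line against that of lung tumour lines. BEAS-2B is an immortalised bronchial epithelial line, A549 a lung adenocarcinoma line and H446 a small cell lung cancer line, all labelled wild type. Each line had 3 control libraries and 3 libraries of cells that received 10 Gy of X-rays and were harvested 24 h later, and no harvest time is given for the controls. Each line stands for 1 established culture line, and the labels do not say whether replicates were separate cultures, so that p-values measure only the spread between these libraries, which may be technical.

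GDF15 is a distant member of the TGF-beta superfamily that is made as a precursor, cleaved by furin-like proteases and secreted as a dimer. It acts on appetite and body weight through GFRAL, a receptor of the hindbrain that signals together with the receptor kinase RET. Transcription of the gene is known to be driven by p53 after DNA damage and by ATF4 and CHOP (the product of DDIT3) in the integrated stress response, the programme that cells start when translation or protein folding is disturbed. In damaged lung epithelium and in many tumours it is one of the secreted signs of cell stress.

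In RefSeq on GRCh38.p14, GDF15 lies on the plus strand of chromosome 19, from 18386158 to 18389176. GENCODE 29 lists 5 transcripts, and the one that starts at the same base has 2 exons, 18386158 to 18386466 and 18388286 to 18389176, and 1200 bases in all. The first exon holds 32 bases of 5′ UTR and the second 244 bases of 3′ UTR with the stop codon. The 250 bases before the start, chr19:18385908-18386157, are shown because the gene differed between lines and treatments and they hold its core promoter. They are printed 5′ to 3′ on the plus strand, with a TATA box and 2 GC boxes in capitals.
GDF15 upstream region: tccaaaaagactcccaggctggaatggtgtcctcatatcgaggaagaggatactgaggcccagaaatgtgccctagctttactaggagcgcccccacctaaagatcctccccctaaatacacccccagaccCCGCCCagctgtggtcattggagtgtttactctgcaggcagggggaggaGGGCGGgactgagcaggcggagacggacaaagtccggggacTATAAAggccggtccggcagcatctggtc
Letters were searched on both strands. TATAAA stood at -29, counted back from the transcript start, and 11.4% of 27305 RefSeq promoter windows of the same length held it. GGGCGG stood at -70 on the plus strand and at -119 on the minus strand (41.3% of windows), and CANNTG, the E-box, at -114 and -9 (62.5%), with the E-box at -114 overlapping the GC box before it. The letters TGANTCA (AP-1), TGACGTCA (CRE), TGATGNAA (C/EBP-ATF), GCGNGGGCG (EGR1) and the 10-base p53 motif were not in this window, where 6.84%, 1.73%, 3.34%, 7.97% and 5.59% of windows held them. These matches describe letters and are no measurement of binding.

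The total of all values per library was between 461255 and 529936 FPKM (fragments per kilobase of transcript, scaled to the mapped reads of the library, the unit inferred for the table). Read counts are not given, so the depth is unknown, and steps between the values of short genes put the deepest library at 1.21 times the shallowest. One library stood apart from its group, irradiated BEAS-2B replicate 2. Of 28 measured p53 target genes, 25 lay above all 3 controls and 1 below them in irradiated replicate 1 (30.1% and 31.6% of all genes tested), and 27 and 1 in replicate 3 (26.0% and 25.8%), but 10 and 9 in replicate 2 (33.3% and 34.3%). Whether this library carries the right label was not tested, so each value that includes it depends on the label as given. In H446, the neuroendocrine markers SYP (0.19 FPKM in controls), CHGA (0.017) and NCAM1 (0.0033) were near 0, while MYC stood at 82.6, higher than in the other lines. In BEAS-2B the basal keratins KRT5 (0.01) and KRT14 (0) were near 0 and CDH1 (0.46) and EPCAM (2.37) low, while KRT17 (165), KRT7 (315) and VIM (898) were high. A549 had KRT8 (533 FPKM), KRT18 (353), AKR1B10 (486), AKR1C1 (221) and ALDH3A1 (657), but little NAPSA (0.69) or EPCAM (0.49). The H446 controls had more KRT8 (1368), KRT18 (1207), KRT7 (1337) and KRT17 (759) than the controls of either other line. Of 9 markers of other cell types, PTPRC (blood cells), LYZ, VWF and CDH5 did not exceed a mean of 0.31 FPKM in any group. CD68 had means of 27.6 and 31.0 FPKM in control and irradiated A549 and 8.56 to 11.04 in the other lines, COL1A1 had 4.19 to 9.14 in all groups, PDGFRA had 1.82 and 2.44 in A549, and PECAM1 (3.79 and 3.81) and DCN (3.27 and 3.85) were found in H446. CD68 (0.16, limma adjusted p = 0.036) and PDGFRA (0.29, limma adjusted p = 0.011) were called higher in irradiated A549, 2 of 3 tested, where 25.3% of all genes were. In H446, 0 of 4 tested were called, where 38.4% of all genes were. The part of these markers in the values of GDF15 was not tested.

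GDF15 was high in both cancer lines without irradiation and low in BEAS-2B cells. The A549 controls had 76.7, 81.93 and 72.81 FPKM (mean 77.1 ± 4.58, SD, n = 3). The H446 controls had 53.67, 50.04 and 55.54 FPKM (53.1 ± 2.80). The BEAS-2B controls had 2.18, 1.85 and 1.96 FPKM (2.0 ± 0.17). The mean of BEAS-2B was lower than that of A549 by a factor of 38.6 and lower than that of H446 by a factor of 26.6. The BEAS-2B controls were part of the contrast on which GDF15 was chosen, so these factors are a description. Ranked by FPKM within a library, GDF15 held ranks 882 to 997 from the top in A549 controls, 1527 to 1673 in H446 controls and 10650 to 10887 in BEAS-2B controls. In bulk RNA, more transcript per cell and more cells with the transcript cannot be told apart.

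After irradiation the gene moved up in A549 and down in H446, and in BEAS-2B it was high in all but 1 library. Irradiated A549 cells had 132.21, 115.82 and 135.65 FPKM (127.9 ± 10.6), every library above every control. Irradiated H446 cells had 35.49, 35.28 and 33.89 FPKM (34.9 ± 0.870), every library below every control. Irradiated BEAS-2B cells had 29.71, 3.01 and 32.06 FPKM (21.6 ± 16.1), or 30.9 ± 1.66 (n = 2) without replicate 2. From the highest mean to the lowest, the order was irradiated A549, A549 control, H446 control, irradiated H446, irradiated BEAS-2B and BEAS-2B control. Between irradiated H446 and irradiated BEAS-2B the ratio of means was 1.13 once replicate 2 was left out, and with replicate 2 the spread of BEAS-2B was larger than the gap.

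**Figure D1:**
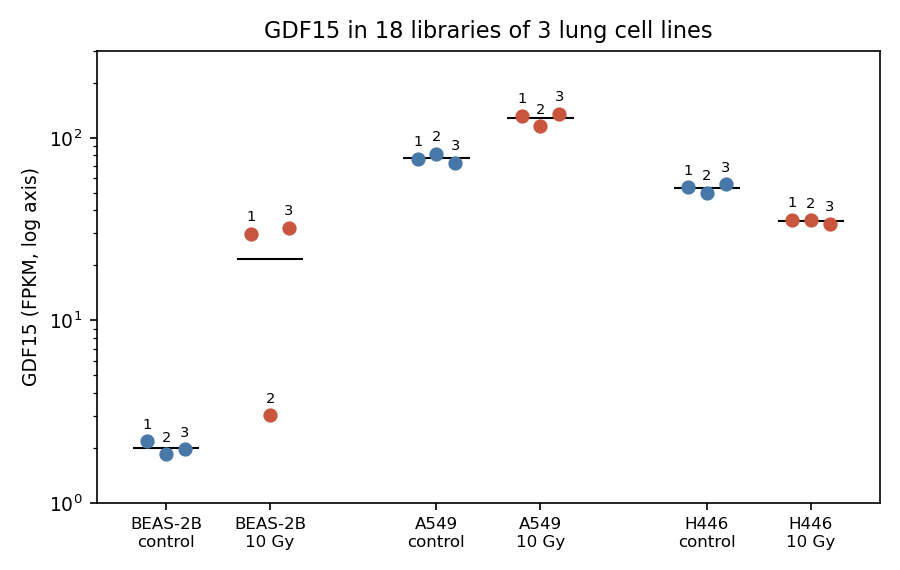
GDF15 in FPKM (log axis) in each library, by line and treatment, with the replicate number above each point and a line at the mean of the 3 libraries. Irradiated A549 lies above its controls and irradiated H446 below, while irradiated BEAS-2B replicate 2 (3.01 FPKM) lies close to the BEAS-2B controls (1.85 to 2.18 FPKM).

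In A549 cells GDF15 rose 1.66-fold by the ratio of mean FPKM. On log2(FPKM + 1) the change was 0.72 (SE 0.06, 95% confidence interval 0.59 to 0.85, limma adjusted p = 1.40e-06). This call was common in the line: 51.7% of 11993 genes tested passed an adjusted p under 0.05, 25.3% higher and 26.4% lower. The size was less common, since GDF15 was 156th from the largest rise, and the median absolute change of the genes called was 0.29. The exact permutation test of the 6 libraries gave a two-sided p of 0.10, the smallest that 3 against 3 allows.

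In H446 cells GDF15 fell, its mean being 1.52 times higher in controls than after irradiation. The log2 change was -0.59 (SE 0.04, interval -0.69 to -0.49, limma adjusted p = 6.13e-06). Here 38.4% of 11479 genes tested were called, 14.8% higher and 23.6% lower. GDF15 was 99th from the largest fall, against a median absolute change of 0.24 among the genes called. The exact permutation p was again 0.10, the smallest possible. GDF15 has a GC content of 62.9% in its transcript, where the median gene has 49.0%, and the libraries of H446 differed along GC content in a way that separated the treatments: the Spearman correlation across genes of a library's deviation with GC was 0.35 to 0.46 in the controls and -0.50 to -0.11 after irradiation. With this trend removed, the fall was -0.40 (limma adjusted p = 1.61e-04), and in A549 the rise was 0.73. The part of the GC trend in the fall beyond this correction was not tested.

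**Figure D2:**
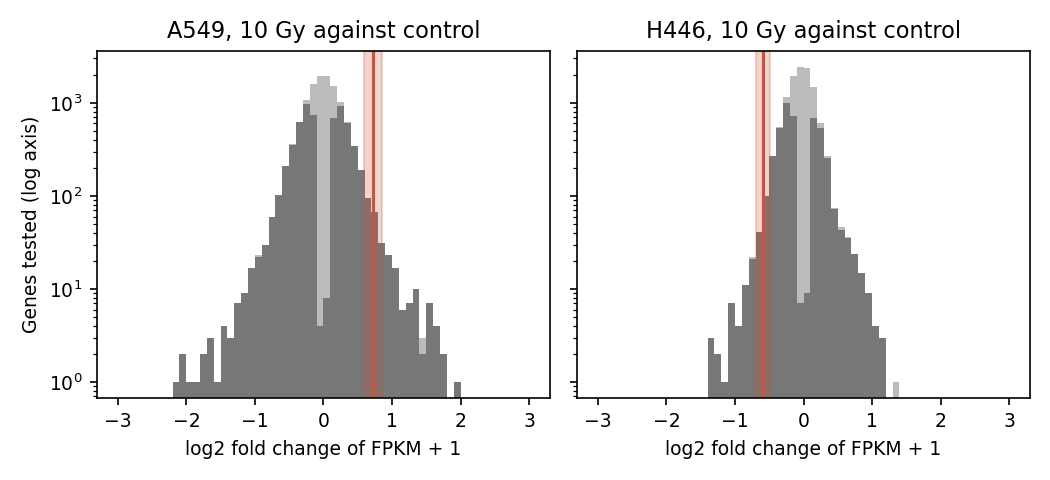
Number of genes (log axis) by log2 fold change of FPKM + 1 after irradiation in A549 (left) and H446 (right), light grey for all genes tested and dark grey for those with an adjusted p under 0.05. The red line is GDF15 with its 95% confidence interval shaded, at 0.72 in the upper tail of A549 and at -0.59 in the lower tail of H446.

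The responses of A549 and H446 differed by 1.31 on the log2 scale (A549 minus H446). In 1 limma fit of all 18 libraries this difference had an SE of 0.67, an interval of -0.10 to 2.72 and an adjusted p of 0.142, and 34.6% of 13071 genes were called. That fit takes 1 spread from all groups, and for GDF15 irradiated BEAS-2B replicate 2 dominated it: without this library the SE was 0.09 and the limma adjusted p 9.26e-09, with the same difference of 1.31. An exact permutation test of the treatment labels within each line, which does not use BEAS-2B, gave a two-sided p of 0.005, the smallest of its 400 arrangements. Its null is no effect of irradiation in either line, so it is no test of whether the responses were equal. In the controls, A549 exceeded H446 by 0.53 (ratio of means 1.45), with a limma adjusted p of 0.306 in the fit of all libraries, 3.44e-07 without that replicate, and 83.2% of genes called. After irradiation A549 exceeded H446 by 1.84 (ratio of means 3.67, limma adjusted p = 0.00156, 83.1% of genes called). For both, the exact permutation p was 0.10, the smallest possible.

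Of 10811 genes tested in both cancer lines, 508 (4.70%) were called higher in A549 and lower in H446, as GDF15 was. Only 4 had changes at least as large as those of GDF15 in both lines, GDF15 included, and the other 3 were named after their values were seen. With the GC trend removed, 326 of 10744 (3.03%) were called in these directions, and again 4 had changes at least as large as GDF15. PCNA, the sliding clamp of DNA replication, changed by 1.38 in A549 and by -0.86 in H446. ALDH3A1, an aldehyde dehydrogenase, changed by 1.57 and -0.77. FAM20C, a kinase of secreted proteins, changed by 0.91 and -0.63.

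In BEAS-2B cells, where the gene was chosen, irradiated replicates 1 and 3 stood at 14.9 and 16.1 times the control mean. Replicate 2 stood at 1.51 times this mean and at 1.38 times the highest control. The log2 difference was 2.42 over all 6 libraries and 3.41 without replicate 2, and GDF15 ranked 1st in both cases, of 11734 and 11680 genes. Next in the ranking without replicate 2 came AREG (3.22), a ligand of the EGF receptor, LOC112267876 (2.93), SERPINB5 (2.87), the gene of maspin, and CDKN1A (2.2). In this line limma called 0 of 11734 genes with all libraries (1446 genes, 12.3%, had an unadjusted p under 0.05), and 233 of 11680 (1.99%) without replicate 2, 224 of them higher (1.92%), and nothing is read from these counts for GDF15.

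Irradiated BEAS-2B replicate 2 was close to the controls for many but not all of the responding genes. CDKN1A, the cell cycle inhibitor p21, had 309.73, 102.24 and 487.79 FPKM in irradiated replicates 1, 2 and 3, and 79.93 to 86.36 in controls. ATF3, a stress-induced transcription factor, had 55.33, 15.04 and 68.19 FPKM, and 14.3 to 17.25 in controls. BAX, a pro-apoptotic p53 target, had 77.57, 80.48 and 78.47 FPKM, and 65.44 to 67.06 in controls. Replicate 2 thus lay within the controls for ATF3, slightly above them for CDKN1A and with the other irradiated libraries for BAX. Over the 28 p53 targets its median deviation from the control mean was -0.01, against 0.65 and 0.91 in replicates 1 and 3. The BEAS-2B libraries also differed along GC content. The Spearman correlation with GC was -0.63, 0.01 and -0.38 in control replicates 1, 2 and 3, and 0.45, 0.70 and -0.31 in irradiated replicates 1, 2 and 3. The BEAS-2B differences given here were not corrected for this trend, and its part in them was not tested.

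p53 target genes, a list of 29 without GDF15, mostly rose in A549. In A549, 26 of 29 were called higher and 2 lower, where 25.3% and 26.4% of all genes tested were, with a median log2 change of 0.91 where all genes had a median of 0.00. The leading rises were TP53INP1 (1.92), a p53 cofactor, FDXR (1.78), a mitochondrial reductase, and MDM2 (1.76), the ubiquitin ligase of p53. CDKN1A rose by 1.54, from a mean of 103 to 303 FPKM. GDF15, at 0.72, lay under the median of the list, next to PLK2 (0.72), a stress-induced polo-like kinase, and BAX (0.73). The 2 members called lower were SESN2 (-0.57) and GADD45A (-0.53), which are also known to respond to ATF4.

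In H446, 6 of 28 p53 targets were called higher and 2 lower, with a median of 0.02 where all genes had -0.03, and 14.8% of all genes were called higher and 23.6% lower. With the GC trend removed, 9 were called higher and 2 lower, where 16.3% and 14.8% of all genes were (31.0% in all). The rises were led by PLK2 (0.51), CCNG1 (0.42), the gene of cyclin G, and GADD45A (0.40), and the falls were DDB2 (-0.30), a damage sensor of nucleotide excision repair, and BAX (-0.23), which lost its call with the GC trend removed (-0.08, limma adjusted p = 0.177). CDKN1A had a log2 difference of -0.13 (limma adjusted p = 0.0642) and MDM2 of -0.11 (limma adjusted p = 0.20). The fall of GDF15 was larger than that of any p53 target measured in H446, the lowest being -0.30. In BEAS-2B, 27 of 28 members had a difference above 0, with and without replicate 2, where 50.4% and 49.0% of all genes did. Their median was 0.52, or 0.83 without replicate 2, where the median of all genes was 0.00 in both cases, against 2.42 and 3.41 for GDF15.

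Genes of the integrated stress response, the other programme known to drive GDF15, went the opposite way in A549. Of 19 measured, 18 were called lower and 0 higher, where 26.4% and 25.3% of all genes were, with a median of -0.98. The largest falls were TRIB3 (-2.01), a pseudokinase that feeds back on the pathway, ASNS (-1.65), asparagine synthetase, and DDIT3 (-1.63). TRIB3 had 91.68, 89.96 and 90.42 FPKM in the A549 controls and 22.94, 21.94 and 20.5 after irradiation, with no overlap. In H446, 5 of 19 were called higher and 8 lower (median -0.12), where 14.8% and 23.6% of all genes were, and 6 and 6 with the GC trend removed, where 16.3% and 14.8% of all genes were. The rises were led by DDIT3 (0.50), STC2 (0.49), a secreted glycoprotein, and PPP1R15A (0.34), a phosphatase subunit that restores translation. The falls there were led by DDIT4 (-0.39), an inhibitor of mTOR signalling, SLC3A2 (-0.30), an amino acid transporter subunit, and TRIB3 (-0.30). With the GC trend removed these were -0.26, -0.17 and -0.13, and TRIB3 lost its call (limma adjusted p = 0.0998). In BEAS-2B, 16 of 18 had a difference above 0, with and without replicate 2, where 50.4% and 49.0% of all genes did. Their median difference was 0.14, or 0.13 without replicate 2.

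**Figure D3:**
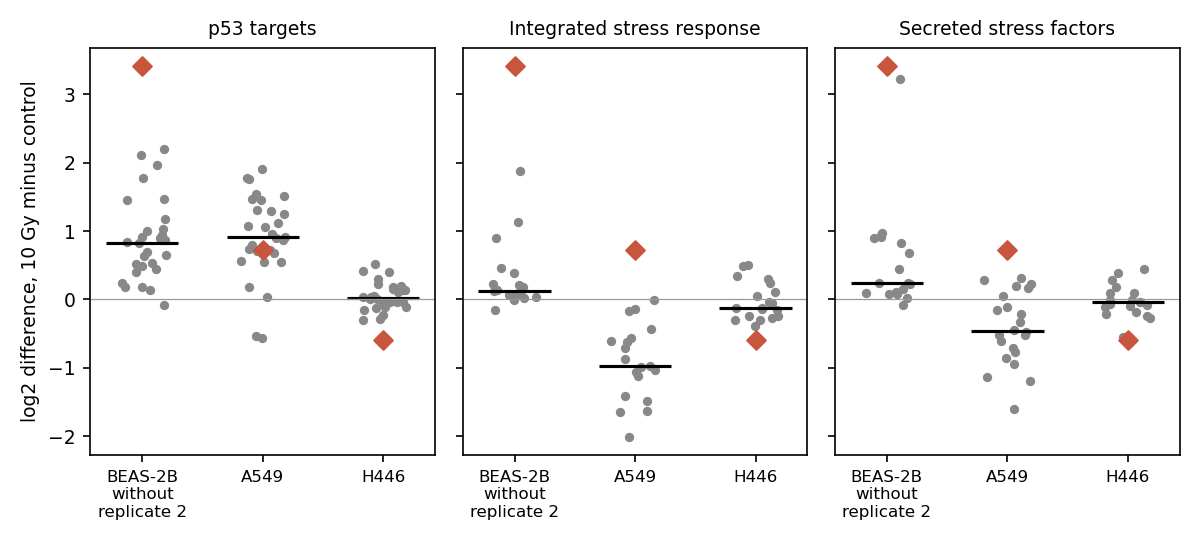
Log2 difference of FPKM + 1, irradiated minus control, for members of 3 gene lists (grey points, with a line at the median) and for GDF15 (red diamond), in BEAS-2B without irradiated replicate 2, A549 and H446. In A549, GDF15 (0.72) lies near the p53 targets (median 0.91) and above the integrated stress response genes (median -0.98), and in H446 (-0.59) it lies below all members of both lists.

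The 13 transcription factors listed as regulators of GDF15 were considered gene by gene. In A549, 12 of 13 were called lower and 0 higher, where 26.4% and 25.3% of all genes were, and the median was -0.56. EGR1, an immediate early factor, fell most (-1.82), and the others included DDIT3 (-1.63), ATF3 (-1.06), JUN (-0.89), XBP1 (-0.80), ATF4 (-0.63), NFE2L2 (-0.56), NFKB1 (-0.50), RELA (-0.39), KLF4 (-0.24) and CEBPB (-0.17). SP1 had a difference of -0.07 (limma adjusted p = 0.204).

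In H446, where GDF15 fell, 3 of 12 factors measured were called higher and 4 lower, where 14.8% and 23.6% of all genes were. DDIT3 (0.50), ATF3 (0.30) and KLF4 (0.22) rose, and those that fell included SP1 (-0.31), CEBPB (-0.15) and NFKB1 (-0.13). With the GC trend removed, 3 were called higher and 2 lower, where 16.3% and 14.8% of all genes were, and CEBPB (0.08, limma adjusted p = 0.122) and NFKB1 (-0.09, limma adjusted p = 0.127) lost their calls. The differences of NFE2L2 (0.10), XBP1 (0.06), JUN (0.02), RELA (-0.04) and ATF4 (-0.05) did not pass the test, and EGR1 was under the limit on low values. In BEAS-2B, ATF3 (1.23, or 1.88 without replicate 2), EGR1 (1.10 or 1.39) and DDIT3 (0.65 or 1.14) had the largest differences.

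Among the ligands of the TGF-beta superfamily, GDF15 was one of the most abundant in both cancer lines. The table held 28 other ligands, of which 14 reached a mean of 1 FPKM in at least 1 group. In A549, GDF15 ranked 2nd among 29 in each control, behind TGFB1 (105.74 to 113.73 FPKM), and 1st in each irradiated library. In H446 it ranked 2nd in 2 controls and 1st in 1, level with BMP2 (54.17 to 54.64 FPKM), and 2nd after irradiation, when BMP2 had 58.73 to 59.94 FPKM. In BEAS-2B it ranked 6th in each control, behind TGFB2, TGFB1, BMP4, GDF11 and AMH, and 3rd, 6th and 2nd in irradiated replicates 1, 2 and 3. Its share of the summed FPKM of the 29 ligands was 27.5 to 29.1% in A549 controls and 38.7 to 41.6% after irradiation. In H446 this share was 28.9 to 31.2% in controls and 21.1 to 21.5% after irradiation. In BEAS-2B it was 1.64 to 2.16% in controls and 22.2%, 2.65% and 26.7% in irradiated replicates 1, 2 and 3.

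Some of the other ligands changed in each cancer line. In A549, 5 of 12 measured were called higher and 2 lower, a share near that of all genes (51.7% called). BMP4 (0.75 on log2(FPKM + 1)) rose from a mean of 1.55 to 3.26 FPKM, and BMP8B (0.44), BMP7 (0.44), GDF11 (0.36) and INHBA (0.26) rose as well. BMP6 (-0.43) and TGFB2 (-0.22) fell, and TGFB1 (-0.05), BMP2 (0.09), INHBB (0.08), BMP8A (0.13) and AMH (-0.22) did not pass the test. In H446, TGFB2 (0.40), BMP2 (0.12) and BMP6 (0.12) rose and AMH (-0.50) and BMP8B (-0.44) fell, with 4 of the 9 measured not called, where 38.4% of all genes were called. With the GC trend removed, BMP8B (-0.33) was called lower and AMH was not (-0.19, limma adjusted p = 0.175). INHBE, a target of the integrated stress response in liver, was under the limit on low values, with means of 1.1 FPKM in A549 controls and 0.2 after irradiation, and INHA reached its highest mean, 2.7 FPKM, in H446 controls.

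**Figure D4:**
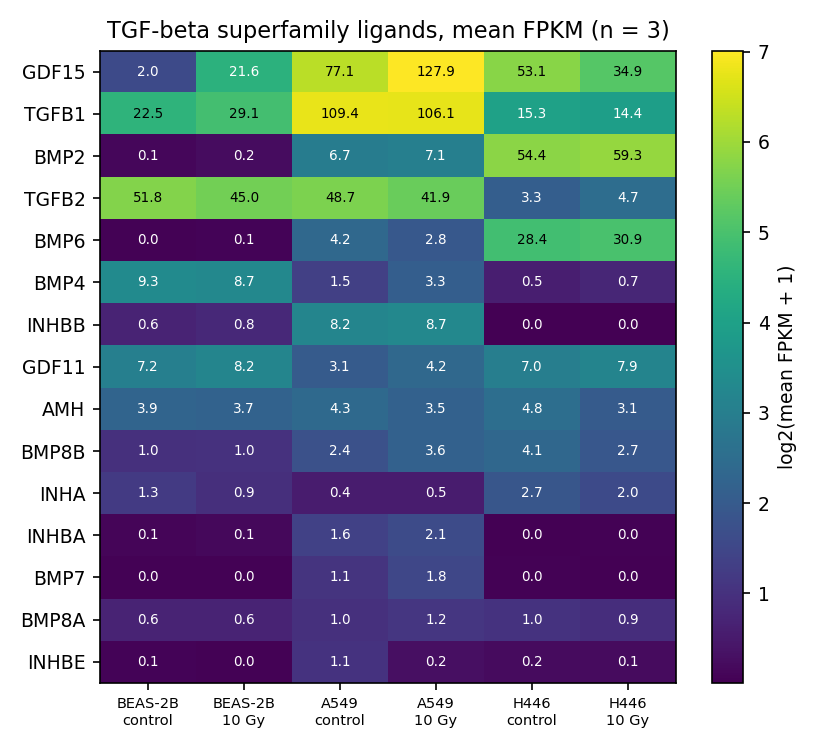
Mean FPKM (number in each cell, n = 3 libraries) of GDF15 and of the 14 other TGF-beta superfamily ligands with a mean of at least 1 FPKM in some group, coloured by log2(mean FPKM + 1). GDF15 has the highest mean of all ligands in irradiated A549 (127.9 FPKM), and the irradiated BEAS-2B mean of 21.6 FPKM includes replicate 2.

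The receptor of GDF15 was near 0 in these cells. GFRAL had a mean of 0 to 0.01 FPKM in every group, and the highest mean of RET was 0.35 FPKM, in irradiated BEAS-2B. FURIN, the main protease known to cleave precursors of this family, had means of 13.96 to 16.4 FPKM in BEAS-2B and A549. In H446 it fell from 69.95 to 52.6 FPKM (log2 change -0.41, limma adjusted p = 9.49e-05, or -0.23 with the GC trend removed), and PCSK7, a related protease, changed by -0.20 (limma adjusted p = 0.020). In A549 the differences of FURIN (0.07), PCSK6 (0.16) and PCSK7 (0.02) did not pass the test, and neither did that of PCSK6 in H446 (-0.03).

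Most other secreted stress factors fell in A549. In A549, 2 of 22 measured were called higher, IGFBP3 (0.28), an IGF binding protein, and PLAU (0.18), the urokinase protease, and 14 lower, with a median of -0.46, where 25.3% of all genes were called higher and 26.4% lower. The largest falls were IL11 (-1.60), a cytokine of the IL-6 family, AREG (-1.19) and HBEGF (-1.13), both ligands of the EGF receptor. In H446, 3 of 19 were called higher and 3 lower (median -0.04), a share near that of all genes (38.4% called). The chemokines CXCL8 (0.45) and CXCL1 (0.39) and the cytokine IL6 (0.28) rose there, and CXCL2 (-0.55), a chemokine, and IL1B (-0.26), a cytokine, were among those that fell. In BEAS-2B, 17 of 18 had a difference above 0, with and without replicate 2 (50.4% and 49.0% of all genes), with a median of 0.22, or 0.24 without it. In replicates 1, 2 and 3, 12, 4 and 13 of these 18 lay above all controls, where 30.1%, 33.3% and 26.0% of all genes did.

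The genes whose pattern was most like that of GDF15 were found by the root mean square difference of log2(FPKM + 1), each gene taken relative to the control mean of its line, over 18 libraries and 13070 genes. A gene that stayed at its control means would have had a distance of 1.21, also the median over all genes, and 118 genes had one under 1. The nearest were NR0B1 (0.394), an orphan nuclear receptor, LOC112267876 (0.486), SERPINB5 (0.50), RRAD (0.534), a small GTPase, and TP53I3 (0.567), a p53-induced oxidoreductase. CDKN1A (0.573), BTG2 (0.675), an antiproliferative gene, PLK3 (0.686), a stress kinase, and PADI3 (0.738), a peptidylarginine deiminase, followed. Pearson's r of the same values, a description over libraries that share lines and controls, was 0.82 to 0.951 for these genes. Only 3 of the 10 genes were also among the 10 with the highest r, which was led by TNFRSF10B (0.967), a death receptor whose changes were much smaller, and 9 of 10 were found again without irradiated BEAS-2B replicate 2.

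The likeness came mostly from BEAS-2B. NR0B1 deviated by 2.55, 0.06 and 3.22 in irradiated BEAS-2B replicates 1, 2 and 3, where GDF15 deviated by 3.36, 0.42 and 3.47. The A549 and H446 libraries also entered the distance that picked these genes, so their changes in those lines are a description. In A549, of these 10 genes, CDKN1A (1.54), BTG2 (1.47), RRAD (0.89), TP53I3 (0.74), PADI3 (0.69) and PLK3 (0.68) were called higher, where 25.3% of all genes tested were. SERPINB5 fell there (-0.22, limma adjusted p = 0.028), and NR0B1 (0.14) did not pass the test. In H446 the 10 genes had smaller changes than GDF15: SERPINB5 changed by -0.14 (limma adjusted p = 0.021), BTG2 by 0.22 (limma adjusted p = 0.041) and LOC112267876 by 0.37 (limma adjusted p = 0.028), and the mean deviations of the others were -0.13 to 0.20.

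**Figure D5:**
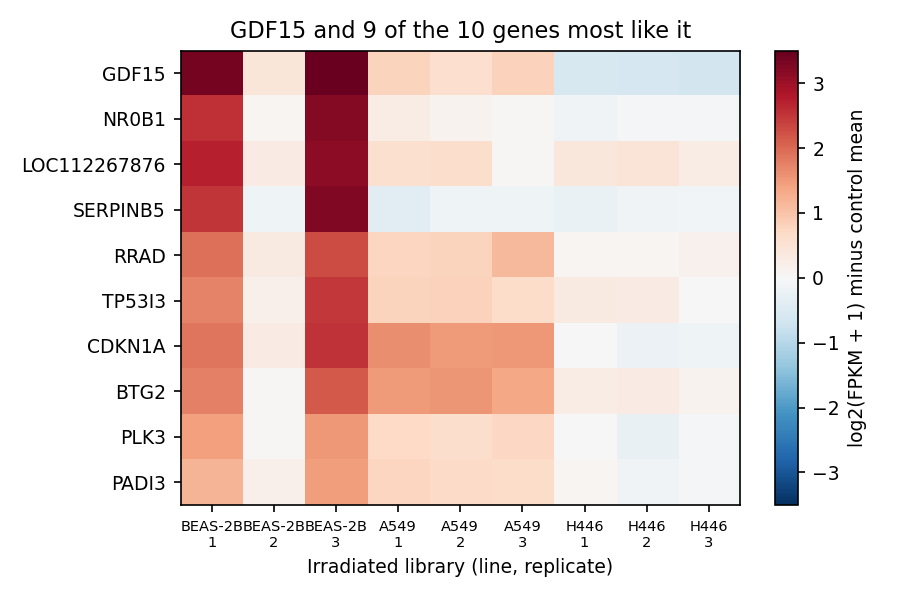
Log2(FPKM + 1) minus the control mean of the line in the 9 irradiated libraries (columns, by line and replicate) for GDF15 (top) and 9 of the 10 genes nearest to it, in order of distance (rows), red for higher and blue for lower. The strong colours lie in BEAS-2B replicates 1 and 3, and in H446 the blue of GDF15 (-0.59 on average) has no match as deep among the others.

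The genes beside GDF15 on chromosome 19 were followed within 50 kb. PGPEP1, a peptidase gene 16208 bases away, rose slightly in A549 (0.36, limma adjusted p = 8.91e-04) and had a difference of -0.20 in H446 (limma adjusted p = 0.141). SSBP4, 13549 bases away on the other side, fell in H446 from a mean of 18.8 to 10.5 FPKM (-0.78, limma adjusted p = 4.32e-06, or -0.52 with the GC trend removed) and had a difference of -0.04 in A549 (limma adjusted p = 0.513). LRRC25, 1961 bases away, did not exceed a mean of 0.04 FPKM. ISYNA1, at 45212 bases, rose in A549 (0.35, limma adjusted p = 0.00148) and was under the limit on low values in H446. In BEAS-2B, the differences of PGPEP1, SSBP4 and ISYNA1 were 0.19, -0.05 and 0.11 without replicate 2, where GDF15 had 3.41.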

How the data were processed

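Poly(A)-selected RNA of BEAS-2B, A549 and H446 cells was sequenced single-end to 50 bases. In GEO the authors deposited 1 table of normalized values with a column per library, taken here to be FPKM. The unit was inferred from the values, since the header does not name it. The submitters' processing notes name HISAT2 2.0.4, Bowtie2 2.2.5, RSEM 1.2.12 and hg38, with no role given. Of 18475 genes, 18181 were matched to current RefSeq names by Entrez number. No pair of libraries shared more than 3.23% of its values above 0. FPKM are relative, so a large change in a few abundant genes can shift all others. GDF15, the gene lists and the tests were chosen with earlier results of these data known.

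Values were analysed as log2(FPKM + 1), so fold changes of low genes are understated. A gene was tested in a line if 3 or more of the 6 libraries reached 1 FPKM, using limma 3.58.1 (lmFit, eBayes with trend) in R 4.3.3 at a Benjamini-Hochberg adjusted p under 0.05. Comparisons between A549 and H446 came from 1 fit of all 18 libraries, over genes that passed this limit in at least 1 line. Single values were also compared by exact permutation. BEAS-2B was not tested for GDF15. On simulated data with log2 changes of 1, 96.9% of changed genes were recovered in A549, 99.3% in H446 and 97.4% in the difference of responses. The simulated noise was independent and had no GC trend, and smaller changes, such as those of GDF15 in A549 and H446, were not simulated. Genes were named by a fixed rule: CDKN1A and MDM2, list members with a mean of at least 1 FPKM in some group (regulators, ligands, processing), the receptors, of the other lists the called members with the 3 strongest rises and falls in a line and those nearest to GDF15 in A549, the 10 genes most like GDF15 and those next to it in the BEAS-2B ranking. Some genes within this rule are not reported here. Markers, chromosomal neighbours and genes marked as such were added. Not analysed here were MMP26, BMP15, GDF2, GDF3, GDF10, NEUROD1, INSM1 and MIR3189. Promoter windows and positions were taken from RefSeq (GRCh38.p14) and GENCODE 29. The alternatives were quantile normalization, a pseudocount of 0.1, other limits on low values, no trend, the replicate number as a block and each library left out. A loess correction (span 0.5) for GC content, rescaling to equal totals and a fit of the 12 A549 and H446 libraries were added after the data were seen. Python 3.11.15, pandas 2.3.3, numpy 2.4.6, scipy 1.17.1 and matplotlib 3.10.9 were used.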

Additional observations from a re-analysis of the deposited data

Results flagged for a closer look

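The response of GDF15 in A549 minus that in H446 was 1.31 on the log2 scale, and it was set apart because the 2 lines moved in opposite directions. Its exact permutation p of 0.005 was against no effect in either line, not against equal responses. The limma fit of all 18 libraries did not call the difference (adjusted p = 0.142). The response in BEAS-2B was 2.42 with all 6 libraries and 3.41 without irradiated replicate 2, whereas every irradiated H446 library lay below every control. GDF15 was chosen for its rise in irradiated BEAS-2B replicates 1 and 3, so their place above the controls was fixed by the choice. Replicate 2 (3.01 FPKM) lay close to the highest BEAS-2B control (2.18 FPKM). The difference between the responses of BEAS-2B and H446 was not tested, because GDF15 had been chosen on the BEAS-2B values.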

How the results depend on the processing

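The log2 change of GDF15 in A549 kept its direction and its call under 14 of 15 alternatives (0.68 to 0.79), and so did that in H446 under 14 of 15 (-0.63 to -0.40). The exception in both was the fit of all 18 libraries, in which the changes of 0.72 and -0.59 had limma adjusted p of 0.246 and 0.406, as the wide spread of irradiated BEAS-2B entered their error. The difference of responses (1.15 to 1.38) and that of the controls (0.48 to 0.64) were not called under 25 of 27 alternatives each. Without irradiated BEAS-2B replicate 2 the limma adjusted p were 9.26e-09 for 1.31 and 3.44e-07 for 0.53, and in the 12 A549 and H446 libraries alone, a fit chosen after seeing the data, 2.71e-08 and 4.80e-07. Leaving out each library in turn gave 1.27 to 1.38 for the responses and 0.49 to 0.57 for the controls. The difference in irradiated cells was called under all 27 alternatives (1.76 to 1.93). The replicate number as a block changed no call (limma adjusted p = 2.80e-06 in A549, 3.99e-05 in H446, 0.0863 for the difference of responses, 0.279 in controls, 0.00113 in irradiated cells). Same-numbered libraries correlated at -0.10 to 0.01 in A549, 0.01 to 0.19 in H446 and -0.13 to 0.32 in BEAS-2B, so the numbers were not taken as pairs. The description of BEAS-2B ranged from 1.89 to 3.41. By Pearson's r in place of distance, 3 of the 10 most similar genes were found again. The counts of genes called in A549, in H446 and between them stayed within 1.5 times the main count under the alternatives run. In BEAS-2B, 0 genes were called by limma with all libraries (1446 at an unadjusted p under 0.05) and 233 without irradiated replicate 2. With the GC trend removed, regulators called lower in H446 went from 4 to 2, such ligands from 2 to 1, and genes called higher in A549 and lower in H446 from 508 to 326. At 3 libraries per group and unknown depth, small changes of GDF15 in BEAS-2B controls, at 1.85 to 2.18 FPKM, could not be resolved.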

Other observations

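AREG, which stood next to GDF15 in the ranking of BEAS-2B, had 14.78, 1.3 and 24.22 FPKM in irradiated BEAS-2B replicates 1, 2 and 3 and 0.54 to 1.52 in the controls. In A549 it fell from 40.89 to 45.32 FPKM in the controls to 17.43 to 19.47 after irradiation (log2 change -1.19, limma adjusted p = 6.98e-09), so that the direction in A549 was opposite to that of GDF15. In H446 it had 39.64 to 43.53 FPKM in controls and 36.75 to 41.88 after irradiation (-0.07, limma adjusted p = 0.305).

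GDNF, a growth factor that like GDF15 signals through RET, was 12th in likeness to GDF15 and 10th without irradiated BEAS-2B replicate 2, and was noticed after its values were seen. Its mean in BEAS-2B was 3.13 FPKM in controls and 7.69 after irradiation, with deviations of 1.30, -0.13 and 1.57 in replicates 1, 2 and 3. In A549 its means were 0.1 and 0.34 FPKM.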
